A study of Homo sapiens with 6 samples.

Results

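The genes described here are 10 genes of the G1 phase, of 18852 genes with a named probe: the cyclins CCND1, CCND2, CCND3, CCNE1 and CCNE2, the cyclin-dependent kinases (CDKs) CDK2, CDK4 and CDK6, and the CDK inhibitors CDKN1B and CDKN2A. They were followed through every probe that the platform annotation assigns to them, which was 16 of the 48803 probes of the array. IGROV-1, an established line from a human ovarian carcinoma, was grown in medium with serum, and its total RNA was hybridised to 6 single-colour Illumina bead arrays. There were 3 arrays of cells given CpG-ODN at 10 µM for 24 h and 3 arrays of cells given saline for a time that is not stated. No genotype or further agent separated the groups. All samples came from 1 cell line, and nothing in the labels says that the arrays of a group were separate cultures, so p-values measure the spread between these samples, which may be technical.

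Cells pass from G1 into S phase when CDKs phosphorylate the retinoblastoma protein and its relatives, which then release the E2F transcription factors. The D cyclins are known to bring growth signals into this step by activating CDK4 and CDK6, and the E cyclins complete it by activating CDK2. Inhibitors hold the kinases back: the CDKN1B product p27 acts mainly on complexes of CDK2, and the INK4a product of CDKN2A acts on CDK4 and CDK6. CDKN2A also encodes ARF, a protein read in another frame from a separate first exon, which protects the p53 protein from degradation. In carcinomas, gain of D or E cyclins and loss of CDKN2A are among the usual ways by which this control is weakened.

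The oligonucleotide given to the cells is shown because it is the sole treatment of the study. ODN1826 is a synthetic phosphorothioate DNA of 20 bases with 2 CpG dinucleotides, in capitals, each within the hexamer GACGTT, and CpG DNA of this kind is known as a ligand of Toll-like receptor 9.
ODN1826: tccatgaCGttcctgaCGtt
Promoters from RefSeq on GRCh38.p14, 250 bases before to 50 bases after a transcript start, were used for 6 of the 10 genes, with 10 starts. Of these, 4 are printed 5′ to 3′ because their genes carry the pattern of detection and change given further on: the E cyclin that was detected, the kinase that lay higher in every CpG-ODN array after normalization, and the starts of the inhibitor gene that was not detected. Capitals mark the GC box GGGCGG and the E box CACGTG, each searched on both strands.
CCNE1, chr19:29811741-29812040, plus strand: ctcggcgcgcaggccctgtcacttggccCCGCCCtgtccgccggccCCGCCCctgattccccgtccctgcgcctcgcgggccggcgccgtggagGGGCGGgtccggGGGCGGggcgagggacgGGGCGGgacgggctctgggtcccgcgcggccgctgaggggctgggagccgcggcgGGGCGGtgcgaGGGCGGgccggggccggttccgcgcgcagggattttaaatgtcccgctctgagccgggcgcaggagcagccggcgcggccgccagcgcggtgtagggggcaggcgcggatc
CDK4, chr12:57752261-57752560, minus strand: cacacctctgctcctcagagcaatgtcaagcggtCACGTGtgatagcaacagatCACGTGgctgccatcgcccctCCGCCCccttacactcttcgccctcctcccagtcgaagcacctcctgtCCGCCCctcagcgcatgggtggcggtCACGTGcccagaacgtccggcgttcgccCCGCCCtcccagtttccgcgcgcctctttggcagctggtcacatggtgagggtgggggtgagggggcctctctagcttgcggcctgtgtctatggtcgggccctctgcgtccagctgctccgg
CDKN2A, upstream start, chr9:21995275-21995574, minus strand: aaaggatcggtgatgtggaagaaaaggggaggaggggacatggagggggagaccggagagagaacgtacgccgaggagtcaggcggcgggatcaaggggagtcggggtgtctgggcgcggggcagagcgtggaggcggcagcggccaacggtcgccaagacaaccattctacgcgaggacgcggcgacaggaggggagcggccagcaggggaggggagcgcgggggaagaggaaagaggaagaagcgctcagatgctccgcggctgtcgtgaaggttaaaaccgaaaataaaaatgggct
CDKN2A, downstream start, chr9:21974808-21975107, minus strand: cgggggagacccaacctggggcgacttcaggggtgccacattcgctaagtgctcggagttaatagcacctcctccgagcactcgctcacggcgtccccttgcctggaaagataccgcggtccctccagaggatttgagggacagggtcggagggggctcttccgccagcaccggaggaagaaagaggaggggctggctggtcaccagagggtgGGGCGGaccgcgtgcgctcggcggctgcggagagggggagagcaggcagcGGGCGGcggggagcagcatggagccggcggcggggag
The CCNE1 promoter held 7 GC boxes and 47 CpG dinucleotides, where the median of the 35116 promoters in the table was 14 CpG. The CDK4 promoter held 3 E boxes, the hexamer that MYC and related factors are known to bind, and 3 GC boxes, with 23 CpG. An E box was found in 7.3% of all promoters and a GC box in 45.0%. The CDKN2A starts held 28 CpG with 0 GC boxes (upstream) and 26 CpG with 2 GC boxes (downstream). The E2F-type octamers TTTCCCGC, TTTCGCGC, TTTGCCGC and TTTGGCGC, searched on both strands, had 0 matches in the 10 promoters and were found in 3.3% of all promoters. None of the 10 belonged to CCND1, CCND2, CCNE2 or CDK2, which were not searched. A match or its lack describes these letters only.

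On an array, 17142 to 18790 probes were detected, that is, had a detection p under 0.05. The detection limit, the lowest intensity of a detected probe, was 128.8 to 140.1 on the CpG-ODN arrays and 134.5 to 140.3 on the saline arrays. Arrays spread more within CpG-ODN than within saline: the log2 differences between 2 arrays had a standard deviation of 0.42 to 0.61 for CpG-ODN pairs and 0.30 to 0.33 for saline pairs. Of 10 epithelial and ovarian carcinoma markers, 7 were detected on all 6 arrays, among them the cell adhesion gene EPCAM, the keratins KRT7 and KRT18 and the transcription factor gene PAX8. WT1 was detected on 2 CpG-ODN and 0 saline arrays, MSLN on 1 CpG-ODN and 0 saline arrays, and MUC16 on 2 CpG-ODN and 3 saline arrays. The leukocyte markers PTPRC and CD3E and the endothelial marker CDH5 were detected on 0 arrays, while CD14, CD68, PECAM1 and VWF were detected on all 6. The leukocyte markers MS4A1 and LYZ were each detected on 2 CpG-ODN and 3 saline arrays. Of 6 fibroblast markers, 0 were detected on all 6 arrays and 3 on none. The summed intensity of the 3 endothelial markers was 775.0 to 858.8 on CpG-ODN arrays and 1011 to 1042 on saline arrays, and its part in the values of the G1 genes was not tested. The sums of the epithelial, fibroblast and leukocyte lists overlapped between the groups.

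One or more members of every role were detected, but not every paralogue was. A probe was detected on all 6 arrays for 7 of the 10 genes: CCND1, CCND3, CCNE1, CDK2, CDK4, CDK6 and CDKN1B. CCND2, CCNE2 and CDKN2A had no probe detected on more than 1 array. By role, this was 2 of 3 D cyclins, 1 of 2 E cyclins, 3 of 3 kinases and 1 of 2 inhibitors. Of the 16 probes, 9 were detected on all 6 arrays, 6 on 0 arrays and 1 on 1 array. Intensities below are non-normalized and linear. Different probes bind their targets with different strength, so the levels of different genes are not ranked.

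**Figure D1:**
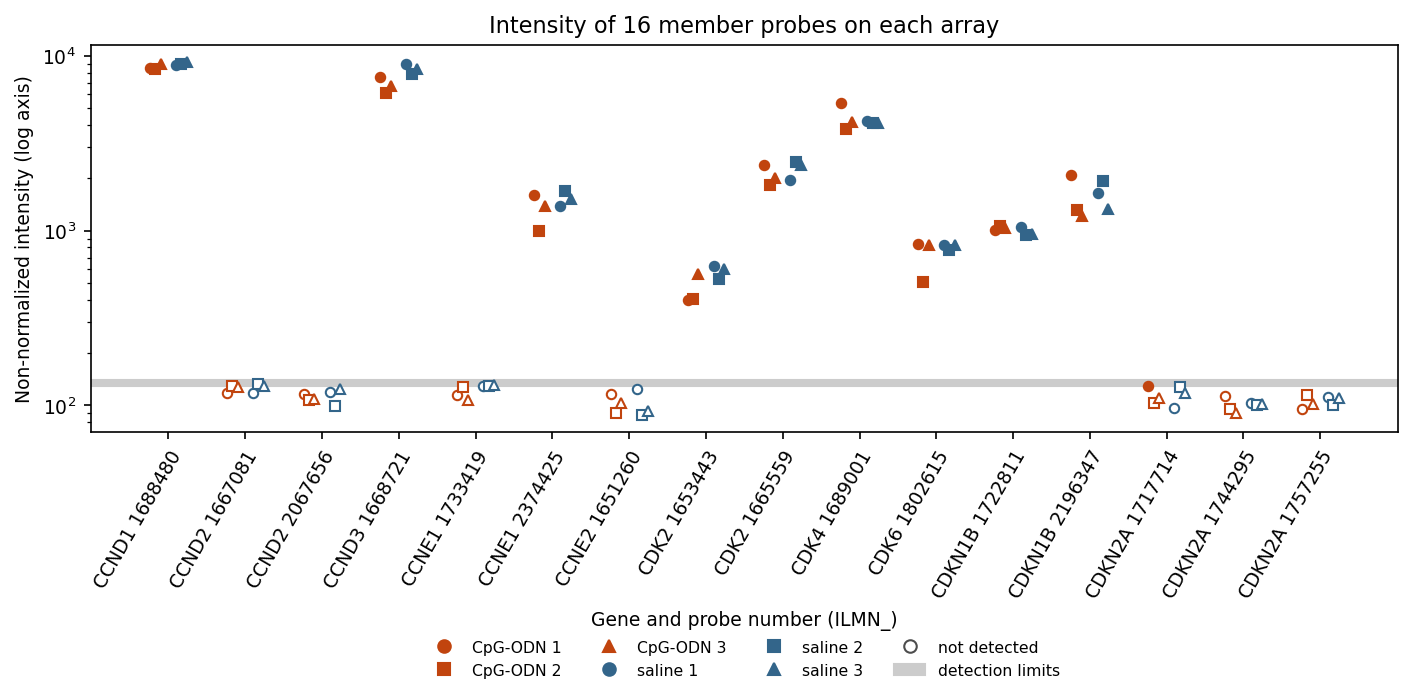
Non-normalized intensity on a log axis of the 16 probes of the 10 genes, with 3 CpG-ODN arrays (left, orange) and 3 saline arrays (right, blue) per probe. Open symbols were not detected and the grey band spans the detection limits of the 6 arrays. The 9 probes detected on all arrays lie clearly above the band, and the other 7 lie in or below it.

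Among the D cyclins, CCND1 and CCND3 were far above background and CCND2 was not detected. CCND1, the cyclin gene known for its response to growth factors, had intensities of 8483, 8420 and 8993 in CpG-ODN arrays 1 to 3, against 8856, 8990 and 9173 in saline arrays 1 to 3. These were 61.9 to 65.9 times the detection limit of the array with CpG-ODN and 64.1 to 66.4 times with saline. The ranges overlapped, with CpG-ODN 1 and 2 below every saline array.

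CCND3, the D cyclin best known from lymphoid cells, had intensities of 7579, 6141 and 6697 in CpG-ODN arrays and 8972, 7869 and 8450 in saline arrays. All 3 CpG-ODN values lay below all 3 saline values. On CCND2, whose product activates the same kinases, the probe ILMN_1667081 had 117.1, 128.8 and 127.2 in CpG-ODN arrays and 118.2, 131.8 and 129.7 in saline arrays, with detection p between 0.0738 and 0.162 over the 6 arrays. Its other probe, ILMN_2067656, lay between 107.5 and 116.1 in CpG-ODN and between 98.5 and 124.4 in saline arrays. Both CCND2 probes were thus at 0.70 to 0.95 times the detection limit.

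The E cyclins, which drive CDK2 at entry into S phase, also differed in detection, but CCNE2 was read by 1 probe only. The CCNE1 probe ILMN_2374425 had intensities of 1606, 990.3 and 1384 in CpG-ODN arrays, against 1387, 1672 and 1506 in saline arrays, or 7.28 to 12.5 times and 10.3 to 11.9 times the detection limit. CpG-ODN 2 was the lowest array, CpG-ODN 1 lay above saline 1 and 3, and the groups overlapped. The other CCNE1 probe, ILMN_1733419, annotated to the same transcript, was detected on 0 arrays, with 106.6 to 127.7 in CpG-ODN and 128.9 to 130.3 in saline arrays. The CCNE2 probe had 116.3, 90.5 and 103.6 in CpG-ODN arrays and 123.4, 88.5 and 92.4 in saline arrays, with no detection p under 0.117. Since a CCNE1 probe was also undetected beside a bright one, 1 undetected probe does not show that CCNE2 transcript was absent.

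All kinases were detected on every array. CDK4, a partner of the D cyclins, had intensities of 5384, 3810 and 4150 in CpG-ODN arrays and 4258, 4121 and 4140 in saline arrays, at least 28.0 times the detection limit. CDK6, the other partner of the D cyclins, had 842.5, 508.3 and 823.9 in CpG-ODN arrays and 828.7, 778.5 and 823.6 in saline arrays. For both genes CpG-ODN 1 was the highest and CpG-ODN 2 the lowest of the 6 arrays before normalization.

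CDK2, the partner of the E cyclins, was measured by a pair of probes annotated to one transcript. ILMN_1665559 had 2372, 1811 and 2003 in CpG-ODN arrays and 1935, 2453 and 2366 in saline arrays, with overlap. ILMN_1653443 had 402.7, 405.2 and 566.5 in CpG-ODN arrays and 626.2, 530.9 and 604.6 in saline arrays, with CpG-ODN 1 and 2 below all saline arrays.

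Of the inhibitors, CDKN1B was detected on all arrays by both of its probes, and CDKN2A on 1 array by 1 of its 3 probes. The CDKN1B probe ILMN_2196347 had intensities of 2076, 1308 and 1205 in CpG-ODN arrays and 1630, 1907 and 1323 in saline arrays. Its probe ILMN_1722811 had 1001, 1058 and 1029 in CpG-ODN arrays and 1052, 942.7 and 954.2 in saline arrays. For both probes the groups overlapped.

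CDKN2A had 3 probes, annotated to 3 transcripts: NM_000077, which encodes the INK4a product, NM_058195, which encodes ARF, and the variant NM_058197. The probes are called by this annotation, and whether each reads only its own transcript was not tested. The INK4a probe had 129.0, 102.7 and 110.6 in CpG-ODN arrays, against 95.9, 127.1 and 117.9 in saline arrays. Its one detection was on CpG-ODN 1, at a detection p of 0.0487 and 1.00 times the limit. The ARF probe had 113.0, 95.5 and 90.7 in CpG-ODN arrays and 102.5, 100.1 and 102.0 in saline arrays. The probe of the variant had 95.01, 114.5 and 102.3 in CpG-ODN arrays and 112.1, 101.0 and 110.4 in saline arrays. Neither of these was detected on any array. Apart from the single value at the limit, CDKN2A transcripts were not detectable at this signal over background.

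CpG-ODN was compared with saline by limma on background-corrected, quantile-normalized log2 levels of the 17950 probes detected on at least 3 arrays. The question was whether the treatment moves the transcripts of this control point in tumour cells. No probe of these genes passed the test: of the 9 that were tested, 0 had an adjusted p (Benjamini-Hochberg) below 0.05, as had 0 of the 17950 probes (0%), and all 9 had an adjusted p of 1.00. At an unadjusted p under 0.05 there were 0 of the 9 probes and 643 of all probes (3.58%). The RNA came from whole cultures, so fewer cells in a phase of the cycle and less transcript per cell cannot be told apart.

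The values that did not pass were small. Log2 fold changes, CpG-ODN minus saline, ran from −0.30 to 0.19 over the 9 probes, with 2 above and 7 below 0. Their median was −0.06, against −0.01 over all tested probes, of which 8633 lay above and 9317 below 0. When arrays were scaled to one median instead of quantile normalized, the median over the brightest probe of each of the 7 genes was 0.03, as was the median of all probes. The 95% interval lay inside 2-fold either way for all 9 probes, against 93.6% of all probes, and inside 1.5-fold for 6 of the 9, against 43.0%.

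**Figure D2:**
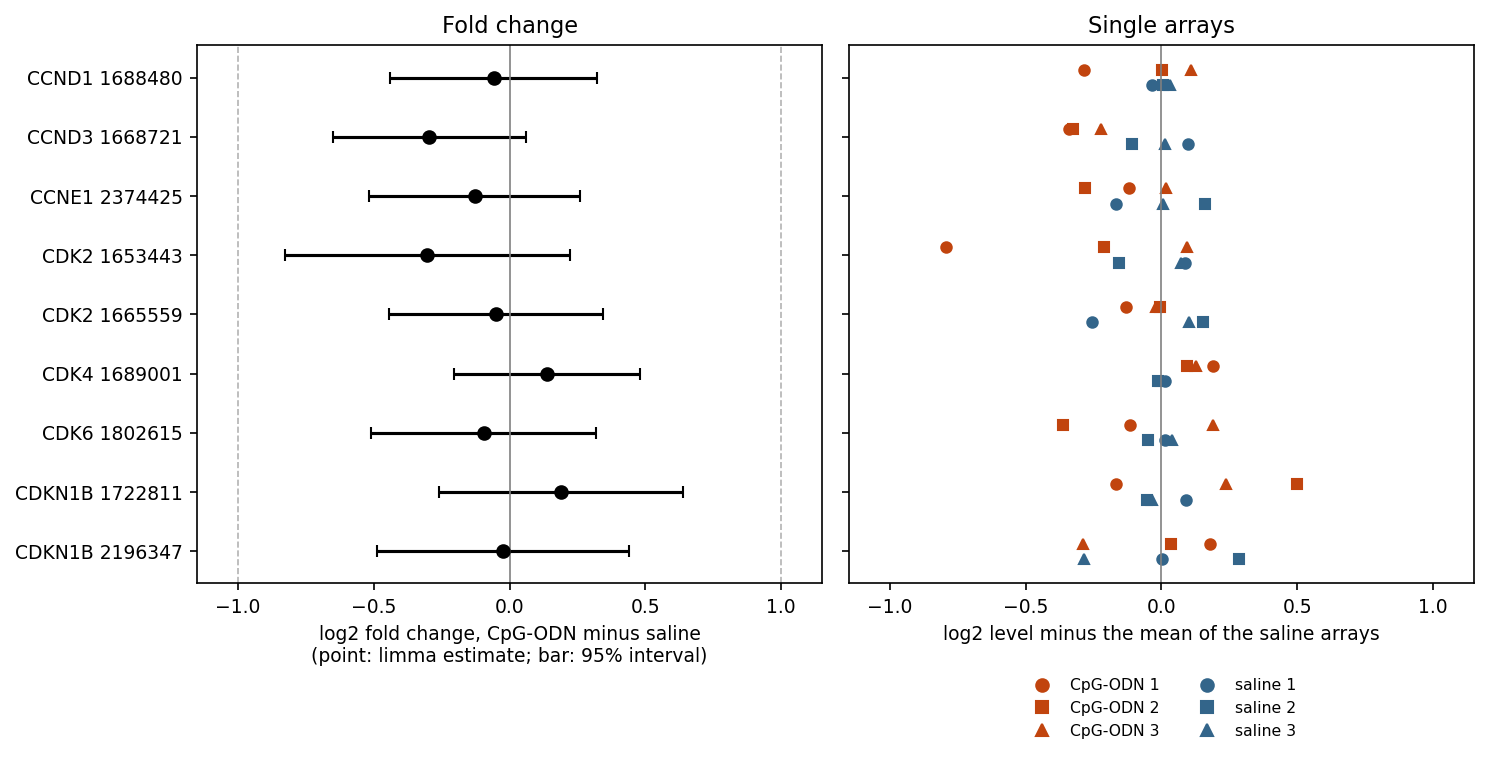
Left, the log2 fold change (CpG-ODN minus saline) of the 9 tested probes, with the limma estimate as a point and its 95% interval as a bar, and dashed lines at 2-fold. Right, each array's log2 level minus the mean of the saline arrays, with CpG-ODN above saline in each row. All intervals include 0, and the groups do not overlap for CCND3 and CDK4.

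CCND3 had the smallest p of the 9 probes. Its normalized log2 levels were 12.68, 12.69 and 12.80 in CpG-ODN arrays and 13.11, 12.91 and 13.03 in saline arrays. The means were 12.72 ± 0.07 in CpG-ODN and 13.02 ± 0.10 in saline (SD, n = 3 each). The log2 fold change was −0.30 ± 0.16 (SE), or 0.81-fold, with a 95% interval from −0.65 to 0.06, an unadjusted limma p of 0.0921 and an adjusted p of 1.00. All CpG-ODN arrays lay below all saline arrays, as they did for 5.03% of all tested probes. With scaling to equal medians the groups overlapped and the value was −0.15.

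CDK4 was the other gene whose groups did not overlap, in the opposite direction. Its log2 levels were 12.16, 12.06 and 12.10 in CpG-ODN arrays and 11.98, 11.96 and 11.97 in saline arrays. The log2 fold change was 0.14 ± 0.15 (SE), with an interval from −0.21 to 0.48 and adjusted p = 1.00 in limma. All CpG-ODN arrays lay above all saline arrays, as they did for 4.32% of all tested probes. The separation was present after quantile normalization and after scaling to equal medians, where the value was 0.24, but not in the non-normalized intensities, where CpG-ODN 2 was the lowest array and CpG-ODN 1 the highest. For 2 of the 9 probes the groups did not overlap in either direction, against 9.35% of all tested probes.

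For CCND1 the log2 levels were 12.83, 13.12 and 13.23 in CpG-ODN arrays and 13.09, 13.13 and 13.15 in saline arrays, a log2 fold change of −0.06 ± 0.17 (SE). CpG-ODN 1 alone lay clearly below saline, and without it the value was 0.054. CCNE1 lay at −0.13 ± 0.17 on its detected probe, with 10.32, 10.16 and 10.45 in CpG-ODN arrays and 10.27, 10.60 and 10.44 in saline arrays. CDK6 lay at −0.10 ± 0.18, with 9.32, 9.07 and 9.63 in CpG-ODN and 9.45, 9.39 and 9.48 in saline arrays. Without CpG-ODN 2, the lowest array, the value of CDK6 was 0.038. The groups of these 3 genes overlapped.

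The spread within a group was wider in CpG-ODN for some of these probes. CDK6 levels had a standard deviation of 0.28 in CpG-ODN and 0.05 in saline arrays, and those of CCND1 0.20 in CpG-ODN and 0.03 in saline. The CpG-ODN group had the larger standard deviation for 5 of the 9 probes, and for 74.2% of all tested probes.

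Probes of one gene did not move together. For CDK2, ILMN_1653443 lay at −0.30 ± 0.23 (SE) and ILMN_1665559 at −0.05 ± 0.17. The first of these had log2 levels of 8.10, 8.68 and 8.98 in CpG-ODN arrays and 8.97, 8.73 and 8.96 in saline arrays, so its value came mainly from CpG-ODN 1, and without that array it was −0.059. The second had 10.90, 11.03 and 11.01 in CpG-ODN arrays and 10.78, 11.19 and 11.14 in saline arrays. For CDKN1B, ILMN_1722811 lay at 0.19 ± 0.20 and ILMN_2196347 at −0.02 ± 0.21. CpG-ODN 2 was the highest of the 6 arrays on the first probe, at 10.25, and the value was 0.035 without it and 0.37 without CpG-ODN 1. The value of ILMN_2196347 was 0.11 without CpG-ODN 3 and 0.12 without saline 2. Over the 6 arrays the probes of a gene correlated at 0.16 for CDK2 and −0.28 for CDKN1B, given as a description over arrays that share their normalization.

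The 7 probes that missed the filter were at background. When every probe was tested without a filter, 0 of them were called, and their log2 fold changes ran from −0.20 (CCNE1, ILMN_1733419) to 0.05 (CDKN2A, INK4a probe), with adjusted p of 0.998 to 0.999. Fold changes of probes at background are drawn towards 0 by the offset.

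The genes around this control point were read from 6 lists of 51 genes, of which 49 had a named probe and 45 were tested. Of these, 0 rose and 0 fell at an adjusted p under 0.05, against 0% of all tested probes. By the probe of highest mean, 1 gene had an unadjusted p under 0.05, against 3.58% of all tested probes. Means lay above saline for 19 genes and below it for 26, against 48.1% above and 51.9% below among all tested probes. The groups did not overlap for 3 of the 45 genes (CDKN1A, CDK3 and TYMS, the last named after its values were seen), all lower in CpG-ODN, against 5.03% of all tested probes. The lists hold the partners and targets of the cyclins and CDKs, and their named genes are the 2 of each list with the smallest unadjusted p.

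Pocket proteins, which the CDKs phosphorylate, and E2F factors with their DP partners lay mostly below saline, with a median of −0.15 over 12 genes and 11 of them below 0. RB1, the retinoblastoma gene, had log2 levels of 7.80, 7.01 and 7.70 in CpG-ODN arrays and 8.10, 8.10 and 7.78 in saline arrays, at −0.49 ± 0.23 (SE). RBL2, which encodes the pocket protein p130, lay at −0.38 ± 0.22, with 9.13, 8.77 and 9.59 in CpG-ODN and 9.51, 9.55 and 9.58 in saline arrays. In both genes CpG-ODN 2 was the lowest array and the groups overlapped, and without it RB1 lay at −0.24 and RBL2 at −0.19. The list median stayed below 0 in 17 of 17 alternatives, from −0.24 to −0.08, while 9 of 12 genes lay below 0 without CpG-ODN 2 and 7 of 12 in CpG-ODN 3 alone. Some alternatives, such as the replicate block and 1 probe a gene, cannot change a list median, so the 17 are not separate checks. E2F1, the best known activator among the E2F factors, was detected on 1 array and not tested.

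Of the other CDK inhibitors, 4 of 6 were tested, with a median of 0.24. CDKN1A, the p53-responsive inhibitor p21, had 12.94, 12.98 and 13.12 in CpG-ODN arrays and 13.23, 13.21 and 13.27 in saline arrays, without overlap, and had a log2 fold change of −0.22 ± 0.16 (SE), against −0.09 by its second probe and −0.071 with equal medians. CDKN2B, an inhibitor of CDK4 and CDK6 akin to INK4a, lay at 0.30 ± 0.21, with 7.38, 7.18 and 6.72 in CpG-ODN and 6.89, 6.62 and 6.88 in saline arrays. Its value was −0.075 in CpG-ODN 3 alone, where the list median was −0.070, and the list median was 0.069 without CpG-ODN 2.

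Activators of CDKs had a median of 0.09 over 6 genes, which was 0.022 without CpG-ODN 2 and 0.17 without saline 2. CCNH, the cyclin of the CDK-activating kinase, was placed at 0.37 ± 0.26 (SE) by one probe and at −0.11 by its second, with 0.086 on the first without CpG-ODN 1, and the phosphatase gene CDC25C at 0.22 ± 0.18 with 0.14 and −0.12 on its others. Parts of the ubiquitin ligases that mark cyclins and p27 for degradation had a median of 0.01 over 8 genes, whose sign held in 12 of 17 alternatives (−0.048 to 0.099). The F-box gene FBXO4 lay at 0.25 ± 0.23, but at 0.047 without CpG-ODN 3 and 0.086 without saline 3. The cullin gene CUL1 lay at −0.16 ± 0.18, but at −0.066 without CpG-ODN 2 and −0.079 without saline 1. SKP2, named after its values were seen, lay at −0.01 ± 0.21 by its brightest probe, but at −0.33 ± 0.16 and −0.46 ± 0.28 by its others. In the same list, the other probes of CKS1B lay at −0.07, of FBXW7 at 0.26 and −0.21, and of FBXO4 at 0.13.

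Other cyclins and CDKs had a median of −0.10 over 9 genes, from −0.18 without CpG-ODN 1 to −0.044 without saline 1 with 1 array left out. With scaling to equal medians it was 0.00084, with 4 genes below and 5 above 0, where all tested probes had a median of 0.030. CDK3, a kinase linked to exit from quiescence, was the gene with an unadjusted p under 0.05 by its probe of highest mean (0.0365, adjusted p = 1.00 in limma): it lay at −0.44 ± 0.18 (SE), with 5.37, 5.74 and 5.47 in CpG-ODN arrays and 5.93, 5.82 and 6.14 in saline arrays, and was detected on 4 of the 6 arrays. The value of CDK3 was −0.19 with plain quantile normalization and −0.27 with an offset of 50. CCNA2, the cyclin of S phase, lay at −0.17 ± 0.17, but at −0.064 without CpG-ODN 2.

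Targets of E2F had a median of 0.02 over 6 genes, 3 above and 3 below 0. The sign of that median turned to −0.031 without CpG-ODN 2, where 5 of 6 genes lay below 0, and to −0.033 without CpG-ODN 3 and without saline 2. RRM2, a subunit of ribonucleotide reductase, lay at −0.28 ± 0.21, but at −0.072 without CpG-ODN 2. PCNA, the sliding clamp of DNA replication, lay at 0.29 ± 0.23, but at 0.105 without CpG-ODN 1 and 0.115 without saline 3. Its other probes lay at 0.46 ± 0.18, with an unadjusted limma p of 0.0276 (adjusted p = 1.00), and at −0.13 ± 0.25.

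**Figure D3:**
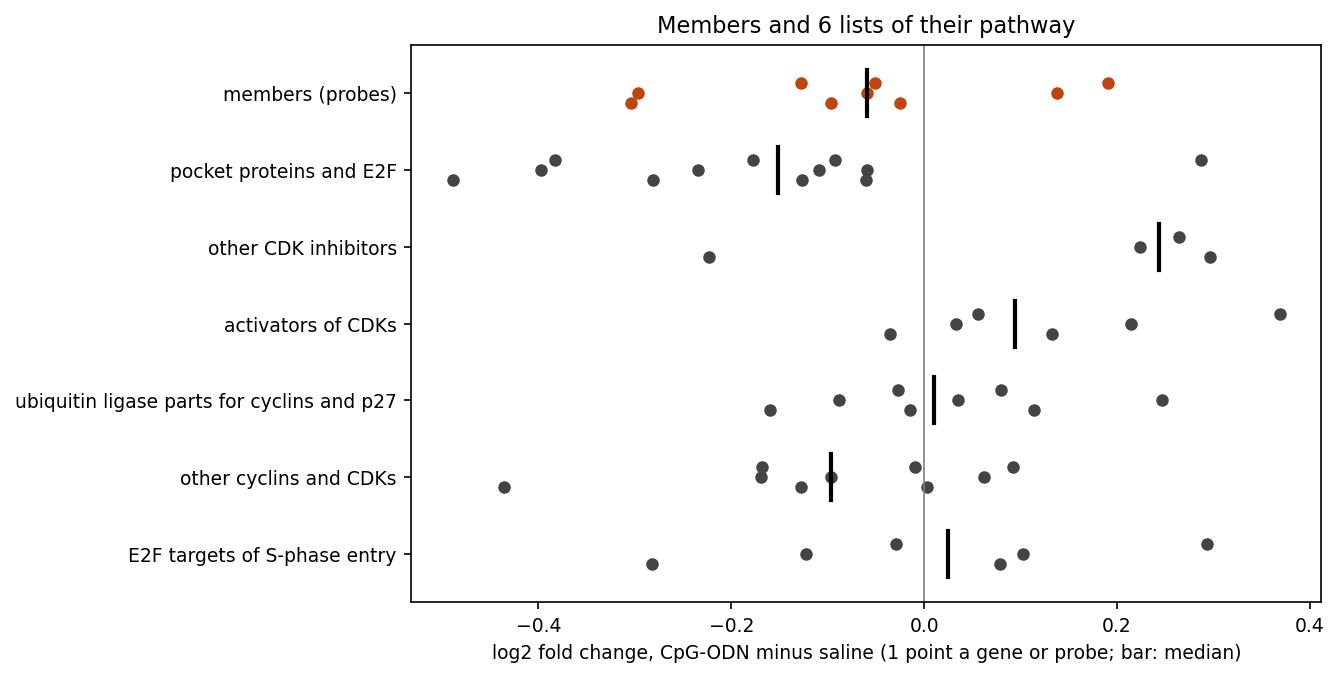
Log2 fold change (CpG-ODN minus saline) of the 9 tested probes of the G1 genes (orange) and of the 45 tested genes of 6 pathway lists (grey, brightest probe of a gene), with the median as a bar. All values lie between −0.49 and 0.37, and 0 of them passed the test.

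The genes whose levels over the 6 arrays were most like those of CCND1 were PITPNB, a phospholipid transfer protein gene, and TYW1, a tRNA-modifying enzyme gene, with Pearson correlations of 0.996 and 0.995. For CDK4 they were LXN, a carboxypeptidase inhibitor gene, and P3H4, a gene of collagen modification, at 0.980 and 0.978. They were the 2 highest of 11039 genes for each, over 6 arrays, so these values describe the arrays and carry no test.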

How the data were processed

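Total RNA of 6 IGROV-1 samples was measured on Illumina bead arrays, per the labels' protocols, and BeadStudio is named in the submitters' processing notes, with its version not given in the sources used here. The deposited intensity of each probe is linear and non-normalized, per the file headers. A detection p-value for each probe and array was deposited beside it, in steps of 0.00132. A second deposited table holds intensities normalized by the authors on a linear scale, and no source used here names the method. Its columns have medians of 119.5, 119.5, 119.5, 119.5, 119.5 and 119.5, keep the rank order of the non-normalized intensities (rank correlation 1) and lie within 0.0218 log2 units of their plain quantile normalization, so no scale, centring or direction is left unknown.

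Non-normalized intensities were corrected and quantile normalized with neqc of limma 3.58.1 in R 4.3.3, with an offset of 16, which gives log2 values from the deposited intensities. A probe was tested where 3 or more of the 6 arrays detected it, at a detection p under 0.05 (17950 of 48803), with lmFit and eBayes, group as the sole term and Benjamini-Hochberg adjustment over all of them. Symbols came from the platform annotation: 28098 probes had 1 symbol, 13 had several and 20692 had none and stayed unnamed, and 28059 matched RefSeq names of GRCh38.p14 by gene number, with 0 changed. A pathway gene is represented by its tested probe with the highest mean. Genes were named as the 10 genes, the 2 of each list with the smallest unadjusted p, and the 2 most correlated with the cyclin and with the kinase whose probe had the highest mean signal, a rule of choice that says nothing of transcript abundance. The genes, lists and rules were chosen with earlier results of these data known. The number of arrays limits the precision. Numbers shared by the groups' labels were not taken as pairs, since no label states a pairing. Same-numbered arrays deviated together with correlations of 0.341, 0.050 and 0.126 across probes. Differently numbered arrays ran from −0.307 to 0.243, so these values do not settle the question.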

Additional observations from a re-analysis of the deposited data

How the results depend on the processing

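With limma 0 probes, 0 probes of the G1 genes and 0 genes of the 6 lists were called in every alternative: plain quantile normalization, the deposited normalized values, equal medians, an offset of 50, no filter, detection p under 0.01 on all 6 arrays, 1 probe a gene, averaged probes, array weights, the replicate block and each array left out. The count at an unadjusted p under 0.05 was 643 and ran from 366 without saline 3 to 2903 with array weights, which gave CpG-ODN 3 a weight of 4.71. It was 893 with the replicate block, 1646 without CpG-ODN 1, 786 without CpG-ODN 2, 997 without CpG-ODN 3, 424 without saline 1, 407 without saline 2, 377 with probes of a gene averaged, 395 with 1 probe a gene, 424 with the stricter filter and 2051 without a filter, where 48803 probes were tested. CpG-ODN 3 alone against saline, chosen after the data had been examined, has an arm of 1 array that is assumed to vary like the saline arrays, so its 1027 and its 0 called say nothing about stability. The replicate block changed no call. CpG-ODN 1 and 3 correlated best with the saline array of the same number (0.341 and 0.126), but CpG-ODN 2 with saline 3 (0.243). Whether the numbers mark pairs was therefore not settled. A probe was detected on all arrays for 7 of the genes at a detection p under 0.05, and likewise under 0.01 (also chosen after the data had been examined) and with CpG-ODN 3 as the sole CpG-ODN array.

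Over the alternatives, values of the 9 probes kept their sign 132 times and turned 17 times, and those of the named list genes kept it 199 times and turned 4 times. With equal medians CCND1 turned to 0.10, CDK2 (ILMN_1665559) to 0.031 and CDKN1B (ILMN_2196347) to 0.047. The mean of its probes put CDKN1B at 0.083. With array weights CCND1 lay at 0.082, CDK2 (ILMN_1653443) at 0.060, CDK6 at 0.15 and CCNH at −0.025. In CpG-ODN 3 alone CCND1 lay at 0.11, CCNE1 at 0.017, CDK2 (ILMN_1653443) at 0.094, CDK6 at 0.19, RBL2 at 0.043, CDKN2B at −0.075 and CCNH at −0.068. With 1 array left out CCND1 ran from −0.14 to 0.054, CDK2 (ILMN_1665559) from −0.18 to 0.025, CDK6 from −0.24 to 0.038 and CDKN1B (ILMN_2196347) from −0.17 to 0.12. CCND3 stayed below 0 (−0.35 to −0.15) and CDK4 above 0 (0.11 to 0.24) in all 17 alternatives, CpG-ODN 3 alone included. These counts are not a measure of stability. No filter, the stricter filter, 1 probe a gene and the replicate block cannot change the value of a probe. Averaging cannot change the value of a gene with 1 tested probe. Plain quantile normalization and the deposited values are nearly the same data. The cause of the turns in sign was not tested. Signal over background limits CCND2, CCNE2 and CDKN2A, and no block for chips could be set, since no chip is named.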

Other observations

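The protein-coding genes next to CDKN2A in RefSeq order on chromosome 9, looked at after the values of CDKN2A had been seen, were largely detected. MTAP, the neighbour on one side and the gene of an enzyme that salvages methionine, had intensities of 1335, 809.9 and 1077 in CpG-ODN arrays and 1281, 1287 and 1136 in saline arrays and was detected on all 6. CDKN2B, the neighbour on the other side, had 274.0, 205.2 and 193.7 in CpG-ODN arrays and 218.4, 193.5 and 217.7 in saline arrays on ILMN_2376723, detected on all 6. Its probe ILMN_1723198 was detected on 2 CpG-ODN and 2 saline arrays and ILMN_1670111 on 0. Beyond MTAP, IFNE, an interferon gene of epithelia, was detected on all 6 arrays by both of its probes, and beyond CDKN2B, DMRTA1 was detected on 0. The 3 probes of CDKN2A thus lay at background between neighbours with uneven signal. MTAP lay at 5.95 to 10.4 times the detection limit, and CDKN2B at 1.38 to 2.13 times on ILMN_2376723. The state of the locus in the DNA was not tested.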
